A study of Mus musculus with 4 samples.

Results

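The results below concern convergent transcription at 7 mouse loci known as off-targets of activation-induced cytidine deaminase (AID): Pim1, Cd83, Il4ra, Mir142, Gas5, Mir155 and Bcl2l1. A window was set around each locus on the mm9 build, and all regions of convergent transcription that lay wholly inside a window in any library were taken. These were 115 of the 47975 regions in 4 libraries, with 30 and 28 in unsynchronized replicates 1 and 2 and 30 and 27 in early G1 replicates 1 and 2. Another 9 regions crossed a window's edge and were not counted. The libraries came from GRO-seq, in which polymerases already engaged on DNA extend their transcripts in isolated nuclei and the nascent RNA is sequenced with its strand. All 4 libraries were made from splenic B cells of C57BL/6 mice of genotype Fucci-EGFP+, activated in culture with LPS, IL4 and Rp105. The 2 unsynchronized libraries came from the total culture. For the 2 early G1 libraries, nocodazole at 100 ng/ml was given at 42 h for 6 h, EGFP+ cells (mostly in G2/M) were sorted and cultured again for 1.5 h, and early G1 cells were sorted from them. The treatment text stands with all 4 samples in the labels and was read, from the titles, as that of the early G1 libraries, and the deposited name of early G1 replicate 1 gives 1 h of culture instead. Nocodazole, the sorts and the cell cycle phase therefore differ together between the groups and cannot be told apart. No label ties the replicates to separate mice or cultures. The p-values below therefore reflect library-to-library spread only, and this may be technical. The files name no genes, so the B cell identity could not be checked against marker genes.

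AID deaminates cytosine in single-stranded DNA and starts somatic hypermutation and class switch recombination in activated B cells. Outside the immunoglobulin genes it also acts at a number of transcribed loci, many of them in strong enhancers or near start sites where sense and antisense transcription run over the same DNA. Such overlapping transcription from both strands is called convergent transcription, and the deposited lists give its position and a signal, the geometric mean of both strands per length.

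The loci differ in kind. Mir142 and Mir155 encode microRNAs of the blood lineages, and their mature products are shown because these windows held the strongest regions called in every library. Sequences are from RefSeq (GRCm38.p6), 5′ to 3′, with the seed (bases 2 to 8) in capitals.
mmu-miR-142a-5p: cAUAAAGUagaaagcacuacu
mmu-miR-142a-3p: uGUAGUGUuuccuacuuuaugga
mmu-miR-142b: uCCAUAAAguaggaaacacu
mmu-miR-155-5p: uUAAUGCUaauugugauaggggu
mmu-miR-155-3p: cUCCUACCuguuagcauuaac
No pair of these microRNAs shared a seed. The hairpin of mmu-miR-142b lies on the strand opposite to that of mmu-miR-142a in the RefSeq annotation, so mature products are annotated on both strands of the Mir142 locus.

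AID prefers cytosines in short hotspot motifs, and AGCT, a well-known one, reads the same on both strands. It was counted in the 250 bases before each RefSeq start of the member genes, available for 5 genes with 9 starts, as a description of the loci and not of measured AID action. AGCT occurred before 3 of the 9 starts, against 70.4% of all 32851 RefSeq promoters of this length. The densest and one without the motif are shown, with AGCT in capitals, for Il4ra (GRCm38.p6 chr7:125552021-125552270, plus strand) and the first Pim1 start (GRCm38.p6 chr17:29490535-29490784, plus strand).
Il4ra: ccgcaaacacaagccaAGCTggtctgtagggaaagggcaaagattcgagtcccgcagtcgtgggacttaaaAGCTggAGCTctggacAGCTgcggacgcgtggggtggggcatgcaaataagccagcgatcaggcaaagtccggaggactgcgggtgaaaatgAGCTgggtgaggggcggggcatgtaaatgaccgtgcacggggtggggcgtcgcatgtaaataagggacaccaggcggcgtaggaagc
Pim1: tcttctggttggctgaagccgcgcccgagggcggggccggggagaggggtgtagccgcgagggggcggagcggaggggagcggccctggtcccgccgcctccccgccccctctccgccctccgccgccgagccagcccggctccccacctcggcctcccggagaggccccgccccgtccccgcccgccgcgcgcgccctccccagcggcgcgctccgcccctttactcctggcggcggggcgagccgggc
Il4ra held 5 AGCT motifs, while 4.36% of all promoters held 4 or more. Both Pim1 starts, all 3 Bcl2l1 starts and the Mir155hg start held 0, and each of the 2 Gas5 starts held 1. A match names letters in this stretch alone, and these GRCm38.p6 positions were not carried over to the mm9 regions below.

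As a setting for the member values, the lists held 12538 and 11961 regions from unsynchronized cells and 12768 and 10708 from early G1 cells. Library sizes inferred from the signal's scaling, rounded, were 14720000 and 13480000 reads for unsynchronized cells against 8170000 and 9520000 for early G1 cells. These sizes rest on an assumed scaling of the signal, per kb and to the same read total in every library. The sources do not give this scaling, so the sizes could all be off by a constant factor. If the scaling was the same in all 4 libraries, depth moved with the group. The part of depth in the results was not tested. The median signal of a list was 10.7 and 15.0 for unsynchronized and 17.2 and 20.3 for early G1 replicates 1 and 2. In the 4972 regions called in all 4 libraries, the median log2 change was 0.41 (early G1 minus unsynchronized, log2 of signal + 1), and changes of single regions are to be read against this shift, those of whole windows against the median of 50 kb bins given below.

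The member regions as a group stood above the lists they came from, though Il4ra and Bcl2l1 were weaker and Gas5 lacked a call in unsynchronized replicate 2. The median signal of the member regions was 31.6 and 26.3 for unsynchronized and 41.8 and 45.5 for early G1 replicates 1 and 2, above the median of the whole list in each of the 4 libraries. Of the 115 regions, 45 (39.1%) lay above the 90th percentile of their own library and 32 (27.8%) below its median. They were also long, with median lengths of 2700, 1109.5, 1824 and 1541 bp, in the same library order, against 991, 884, 972 and 852 bp over all regions. Together the 7 windows held 1.05% and 0.798% of a library's summed signal in unsynchronized cells and 1.17% and 1.002% in early G1 cells. These shares, 0.926 ± 0.180% and 1.09 ± 0.119% (SD, n = 2), overlapped between the groups. Their share of the called length was 0.341% and 0.292% against 0.429% and 0.374%. Both early G1 libraries were thus above both unsynchronized libraries in length share, at the smallest p that 2 against 2 libraries allow (exact two-sided permutation p = 0.3333).

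**Figure D1:**
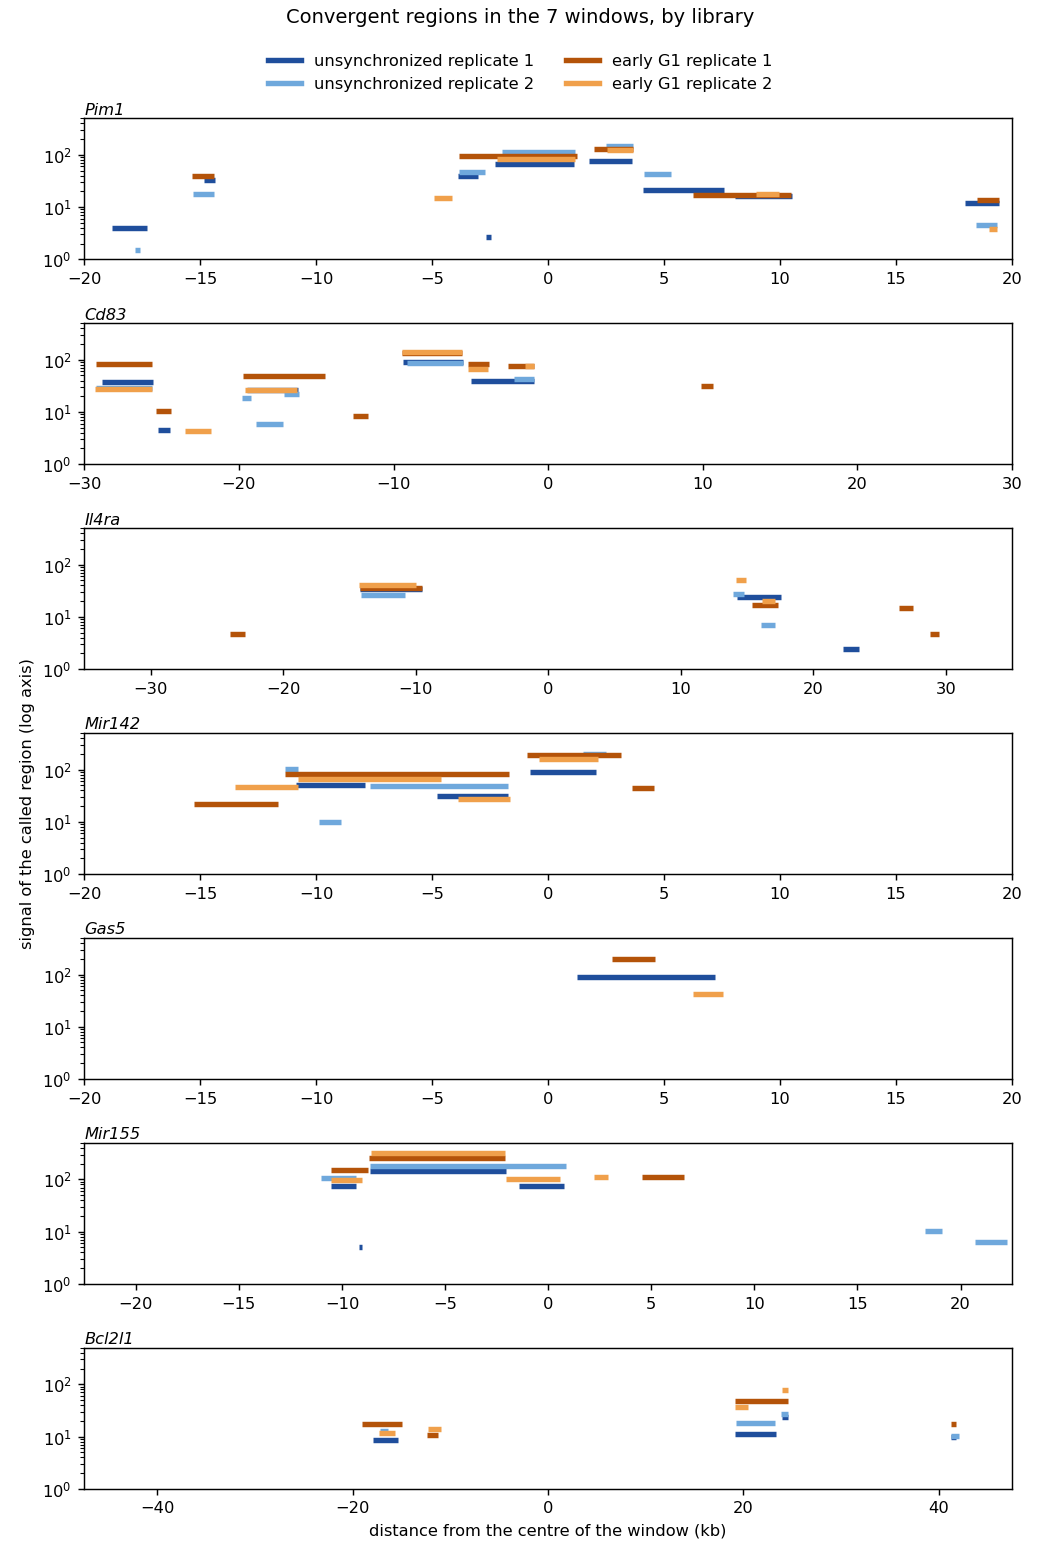
Position and signal of each called region in the 7 windows; the x axis is the distance from the window's centre in kb, the y axis the signal on a log scale, and colours mark the 4 libraries. Mir155 holds the highest signals, Gas5 has calls in 3 of the 4 libraries, and the longest Bcl2l1 region, right of the centre, lies higher in both early G1 libraries.

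The levels of the loci were compared by the length-weighted mean signal of the called regions in each window. Among unsynchronized cells, Mir155 stood highest at 131 ± 15.9, followed by Mir142 at 62.7 ± 3.81, Pim1 at 55.3 ± 28.4, Cd83 at 45.3 ± 2.43, Il4ra at 24.3 ± 2.70 and Bcl2l1 at 14.3 ± 4.42 (SD, n = 2). The Pim1 libraries, at 35.3 and 75.4, spanned those of Mir142 and Cd83, so Pim1 could not be placed against either, while Mir142 lay above Cd83 in both libraries and the other neighbours did not overlap. Gas5 had a single unsynchronized value of 88.5. In early G1 cells the order was Mir155 at 222 ± 13.9, Gas5 at 118 ± 107, Mir142 at 82.4 ± 12.8, Cd83 at 67.0 ± 9.33, Pim1 at 65.9 ± 3.75, Il4ra at 31.2 ± 10.6 and Bcl2l1 at 29.1 ± 3.11 (SD, n = 2). Mir142 again lay above Cd83 in both libraries (91.4 against 73.6 and 73.3 against 60.4), though their ranges met. Gas5 and Mir142 changed order between the libraries, as did Cd83 and Pim1, and Il4ra and Bcl2l1. Mir155 lay above all other loci in each library.

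**Figure D2:**
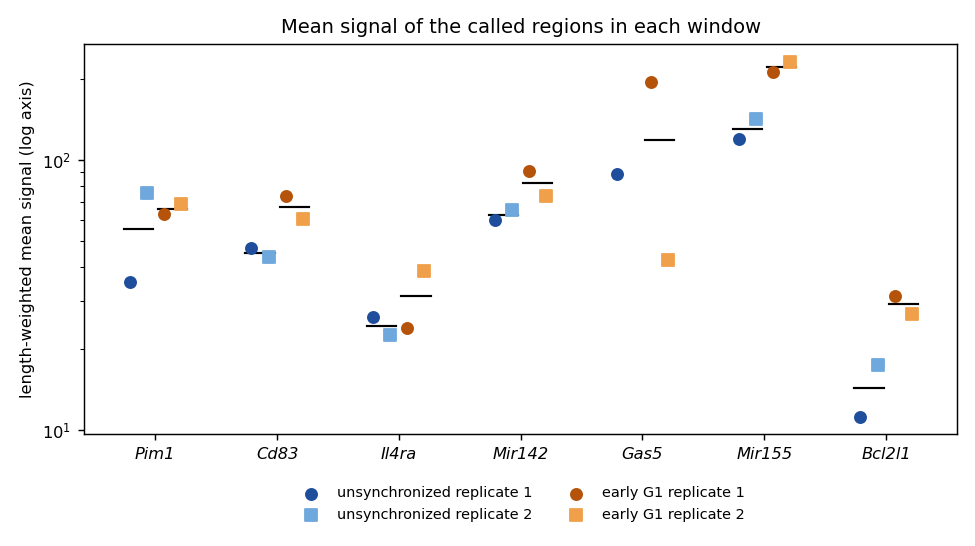
Length-weighted mean signal of the called regions in each window (y axis, log scale) for the 4 libraries, with a black line at the mean of each group of 2. Mir155 is highest in every library, at 119 to 231, and Gas5 has no call in unsynchronized replicate 2 and no line for that group.

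Both early G1 libraries exceeded both unsynchronized ones in mean signal at Cd83, Mir142, Mir155 and Bcl2l1 (4 of 7 loci, against 43.4% of 4416 bins of 50 kb with calls in all 4 libraries), while the groups overlapped at Pim1, Il4ra and Gas5. The summed signal of a window (signal times kb) was tested with limma on log2(sum + 1), together with these bins. None of the 7 loci passed an adjusted p of 0.05, and 0% of the 4423 windows and bins did. Of these 4423, an unadjusted limma p under 0.05 was reached by 404 with early G1 higher and by 94 with early G1 lower. None of the 7 loci was among them, the lowest unadjusted limma p being 0.062 at Mir142. The median log2 change was 0.84 over the 7 loci and 0.75 without Gas5, against 0.40 over the bins, whose 5th to 95th percentiles were -1.30 to 1.81. The gap of 0.44 between loci and bins rested largely on single libraries. It was 0.053 without unsynchronized replicate 2 (0.60 against 0.55) and 0.21 without early G1 replicate 1, but 0.74 without unsynchronized replicate 1 and 0.66 without early G1 replicate 2. The summed signal did not overlap between the groups and was higher in early G1 at 4 of 7 loci (57.1%), against 37.7% of the bins. These loci were the same 4 as for mean signal. The windows were 40 to 95 kb wide. Apart from Gas5, they lay at percentile 85.4 of the bins or above in summed signal in every library. The bins were not matched to the windows for width or level.

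Bcl2l1, which encodes the anti-apoptotic protein Bcl-xL, had the largest difference among the member regions. Its window (chr2:152585000-152680000, mm9) held 4 regions in each library, and the longest, at chr2:152651633-152657060, had a signal of 12.7 and 19.6 in unsynchronized replicates 1 and 2, against 47.3 and 49.1 in the early G1 replicates. Both early G1 libraries were well above both unsynchronized libraries. The means of 16.2 ± 4.84 and 48.2 ± 1.23 (SD, n = 2) differed 2.98-fold. The log2 change was 1.55 (SE 0.42), 1.13 beyond the median of all regions, and did not pass the test (limma adjusted p = 0.144). Called lengths were 4749, 4734, 5357 and 1915 bp in the same library order, so early G1 replicate 2 covered the least of it. The log2 change was 1.11 with each library divided by its median and 0.37 for unscaled reads, which also take in the called length. Without early G1 replicate 1 the region fell into separate parts, with log2 changes of 1.32 (limma adjusted p = 0.305) at chr2:152651633-152655849 and 1.60 (limma adjusted p = 0.187) at chr2:152656378-152657060.

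The rest of the Bcl2l1 window was weak. At chr2:152613476-152617579 unsynchronized cells had signals of 8.58 and 12.8 and early G1 cells of 17.6 and 11.5, and the groups overlapped. A region at chr2:152620063-152621491 was called in both early G1 libraries alone, with signals of 10.9 and 13.8, and was the only member region with that pattern. Summed over the window, unsynchronized cells had 99.6 ± 17.4 and early G1 cells 238 ± 153 (SD, n = 2), with a log2 change of 1.10 and an SE of 0.62 (limma adjusted p = 0.538), 0.70 beyond the median of the bins. Leaving out early G1 replicate 1 gave 0.40, and leaving out replicate 2 gave 1.80. RefSeq lists Cox4i2 as overlapping the gene and Id1 and Tpx2 as the next coding genes, and the signal was not assigned to any of them.

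Cd83 encodes a surface protein of activated B cells and dendritic cells, and its window (chr13:43860000-43920000) held 4 regions called in all 4 libraries. The strongest, at chr13:43880540-43884487, had a signal of 89.6 and 87.0 in the unsynchronized replicates, against 132.8 and 140.1 in early G1. Replicates were close here, and the groups were apart. The means of 88.3 ± 1.83 and 136 ± 5.13 (SD, n = 2) differed 1.55-fold, at a log2 change of 0.62 with an SE of 0.40 (limma adjusted p = 0.465), 0.21 beyond the median of all regions.

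The neighbouring Cd83 region at chr13:43884805-43889091 had signals of 39.1 and 42.0 against 79.2 and 69.8, a 1.84-fold difference (log2 change 0.86, SE 0.40, limma adjusted p = 0.335). It was named after its values were seen, as one of the 2 member regions with an unadjusted p under 0.05. The longest Cd83 region, chr13:43870189-43875550, had signals of 26.1 and 12.9 against 49.4 and 26.5, so that early G1 replicate 2 nearly met unsynchronized replicate 1 (log2 change 0.94, SE 0.47, limma adjusted p = 0.362). Leaving out unsynchronized replicate 2 gave 0.46, and leaving out replicate 1 gave 1.42. All 4 shared regions of Cd83 lay above the median change of all regions. The summed signal of the window was 620 ± 145 and 1121 ± 342 (SD, n = 2), or a log2 change of 0.84 with an SE of 0.45 (limma adjusted p = 0.524), 0.44 beyond the median of the bins. It was 0.52 without early G1 replicate 1.

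Mir155 encodes a microRNA induced in activated B cells, and its host transcript is Mir155hg. Its window (chr16:84690000-84735000) stood highest of the 7 in summed signal in each library, at percentile 99.9 of the bins or above when rounded to 1 decimal, and held 29.9% and 49.8% of the summed signal of the loci in the unsynchronized replicates, against 31.6% and 48.9% in early G1. The leading region, chr16:84703815-84713383, had a signal of 127.8 and 181.2 in the unsynchronized replicates, against 259.6 and 263.2 in early G1. Both early G1 libraries were higher. Their near equality was over unlike extents, with 8763 and 9529 bp called in the unsynchronized replicates and 6614 and 9114 bp in early G1. Early G1 replicate 1 was called at chr16:84703815-84710428 alone. Early G1 replicate 2 had 327.1 at chr16:84703886-84710390 and 103.9 at chr16:84710474-84713082. The means of 155 ± 37.8 and 261 ± 2.50 (SD, n = 2) differed 1.69-fold, at a log2 change of 0.78 with an SE of 0.42 (limma adjusted p = 0.396), 0.36 beyond the median. As reads not scaled for library size the libraries held 16480, 23273, 14021 and 22845, which overlapped between the groups, and the log2 change was -0.13 on that scale. For signal times length of this region the log2 change was 0.54. The summed signal of the window was 1573 ± 507 and 2419 ± 295 (SD, n = 2), at a log2 change of 0.65 with an SE of 0.40 (limma adjusted p = 0.553), 0.25 beyond the median of the bins, and of 0.32 without unsynchronized replicate 1.

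Mir155 also had 4 regions called in a single library each, as many as Il4ra. Of these, chr16:84714707-84715404 in early G1 replicate 2 and chr16:84717055-84719068 in early G1 replicate 1 had signals of 113 and 112, the highest of all member regions called once. Each was seen in that library only, and transcription below the authors' calling limit would leave no call.

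Mir142 is a microRNA gene of blood cells. The called length in its window (chr11:87550000-87590000) was greater in early G1, a pattern no more common among the 7 loci than among the bins. Unsynchronized cells had 10.1 ± 2.40 kb called and early G1 cells 16.0 ± 3.32 kb (SD, n = 2), the only locus of the 7 (14.3%) where the groups did not overlap in length with early G1 higher, against 16% of the bins. No locus had non-overlapping lengths with early G1 lower, as 20.9% of the bins had. Over the 7 loci the median log2 change of called length was 0.10, beside -0.03 over the bins, and it was -0.28 without early G1 replicate 1. The longest member region, chr11:87554740-87568343, was called over 8925 and 7423 bp in the unsynchronized replicates, against 13275 and 11100 bp in early G1. Its signals of 49.97 and 48.0 in unsynchronized cells lay near those of early G1 cells, 64.5 and 53.6 (log2 change 0.26, SE 0.40, limma adjusted p = 0.767), less than the median of all regions. With early G1 replicate 1 left out the change was 0.13, and with replicate 2 left out 0.71.

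The strongest Mir142 region, chr11:87569068-87573158, had a signal of 91.1 and 199.3 in the unsynchronized replicates, against 189.8 and 159.8 in early G1. The unsynchronized replicates spanned both early G1 values (log2 change 0.37, SE 0.46, limma adjusted p = 0.713), and without unsynchronized replicate 1 the change was -0.19. Summed over the window, the signal was 627 ± 112 and 1338 ± 478 (SD, n = 2), and the log2 change 1.06 with an SE of 0.46 (limma adjusted p = 0.449), 0.66 beyond the median of the bins. It was 0.68 without early G1 replicate 1.

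**Figure D3:**
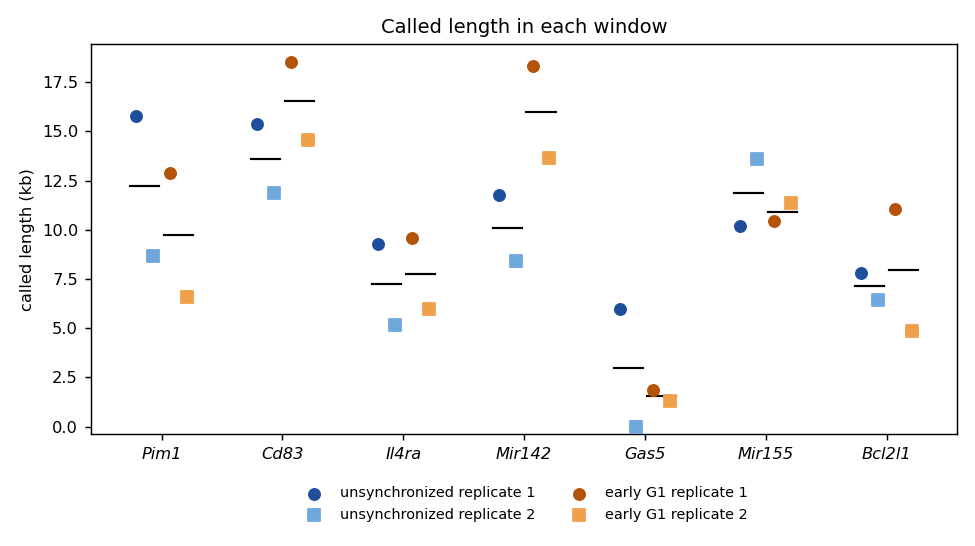
Called length in kb in each window (y axis, from 0) for the 4 libraries, with a black line at the mean of each group of 2. At Mir142 both early G1 libraries lie above both unsynchronized libraries, and at the other 6 loci the groups overlap.

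Pim1 encodes a serine/threonine kinase and is a classic target of aberrant hypermutation in B cell lymphoma. Its window (chr17:29610000-29650000) did not differ between the groups beyond the spread of replicates. The strongest region, chr17:29631757-29633645, had a signal of 77.4 and 150.3 in the unsynchronized replicates, against 126.6 and 126.2 in early G1. Unsynchronized replicate 1 was the lowest and replicate 2 the highest (log2 change 0.23, SE 0.44, limma adjusted p = 0.815), and without unsynchronized replicate 1 the change was -0.25.

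The longest Pim1 region, chr17:29634088-29640500, had a signal of 18.9 and 42.2 in the unsynchronized replicates, against 17.2 and 17.9 in early G1. It was the only shared member region where both early G1 libraries lay below both unsynchronized ones, though unsynchronized replicate 1 lay close to them (log2 change -0.66, SE 0.46, limma adjusted p = 0.496). The unsynchronized replicate 2 call (chr17:29634121-29635300) shared no base with those of early G1 (chr17:29636225-29640459 and chr17:29638941-29639946). Calls of unsynchronized replicate 1 joined them, so the values compare different DNA. Its call that overlapped both early G1 calls, chr17:29638055-29640500, had a signal of 16.2. Without unsynchronized replicate 2, which was the highest, the change was -0.10. With regions merged within 1 kb, where this region joined its neighbours, the change was 0.15. Over the window the summed signal was 606 ± 69.5 and 633 ± 257 (SD, n = 2), which differed by a log2 of 0.0067 with an SE of 0.48 (limma adjusted p = 0.996), or -0.39 relative to the median of the bins. A weak region at chr17:29611182-29612713, with signals of 4.01 and 1.49, was the only member region called in both unsynchronized libraries alone.

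Il4ra encodes the alpha chain of the receptor for IL4, which was in the culture. Its window (chr7:132675000-132745000) was among the weaker of the 7. The leading region, chr7:132695747-132700509, had a signal of 34.3 and 26.1 in the unsynchronized replicates, against 35.9 and 40.8 in early G1. Early G1 replicate 1 was barely above unsynchronized replicate 1 (log2 change 0.34, SE 0.41, limma adjusted p = 0.697), and the change was 0.15 without unsynchronized replicate 2. The summed signal was 180 ± 89.6 and 229 ± 2.72 (SD, n = 2), and the log2 change 0.44 with an SE of 0.54 (limma adjusted p = 0.738), 0.044 beyond the median of the bins. Without unsynchronized replicate 2 it was -0.086. With the region crossing the window's right edge counted in, the log2 change was 0.65. Of the 6 merged regions in the window, 4 were called in a single library, with signals between 2.44 and 14.7. Its promoter, printed above, was the one with 5 AGCT motifs, and no relation between motif and signal was tested.

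Gas5 is a non-coding RNA gene that hosts small nucleolar RNAs. Its window (chr1:162945000-162985000) held a single merged region, chr1:162966230-162972531. The signal was 88.5 over 5949 bp in unsynchronized replicate 1, 194 over 1841 bp in early G1 replicate 1 and 42.5 over 1296 bp in early G1 replicate 2, with no call in unsynchronized replicate 2. Both early G1 calls lay inside the merged region but 1641 bases apart, so they shared no base. Since unsynchronized replicate 2 had no call, no base of the merged region was called in all 4 libraries. With the missing call entered as 0, the log2 change of the summed signal was 2.63 (SE 2.83, limma adjusted p = 0.705), and -1.90 without unsynchronized replicate 2, the library without the call. These values give no direction for Gas5.

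Over all loci, 35 merged regions were found in the windows, of which 16 (45.7%) were called in all 4 libraries, against 24.6% of all 20175 merged regions. Another 13 (37.1%) were called in 1 library, against 39.9% of all, and early G1 libraries made 10 of these 13 calls (76.9%, against 51.6% of all such calls). Early G1 replicate 1 alone made 7 of them. By bases, 34.0% of the DNA called in any library was called in all 4 in the windows, against 16.5% over the series. The share of bases was highest at Cd83 (47.1%) and Mir155 (45.7%) and lowest, apart from Gas5, at Bcl2l1 (22.0%) and Pim1 (24.8%). The member regions had higher signal and greater length at the median than the lists. The shares were not compared with regions of like signal and length, so they do not set these loci apart from other strong, long regions.

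Of the 16 regions called in all 4 libraries, 0 passed the test in either direction (limma, adjusted p under 0.05, lowest 0.144), where 0.302% of all 4972 regions passed with early G1 higher and 0.0402% with early G1 lower. Before adjustment, 2 member regions with early G1 higher and 0 with early G1 lower had a p under 0.05 in limma, beside 693 and 47 of all regions. The median log2 change of the 16 was 0.39, with a range of -0.66 to 1.55, beside the 0.41 of all regions, and 7 of the 16 lay above that median. With each library divided by its median signal, both medians turned slightly negative, at -0.057 and -0.026. The groups did not overlap at 8 of them. Of these, 7 were higher in early G1, beside 43.9% of all regions, and 1 was lower, beside 4.67%. The 6 remaining regions called in all 4 libraries, neither named by the rule nor the second Cd83 region above, had log2 changes of -0.02 to 0.51 (limma adjusted p = 0.586 to 0.993). Among the 16 regions the fewest reads in a library ran down to 11.6, with a median of 1054. The counting error was at least 20.8% of the signal at the fewest reads and 0.464% at the most. The lists hold no duplicate information, so this is counting error alone.

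**Figure D4:**
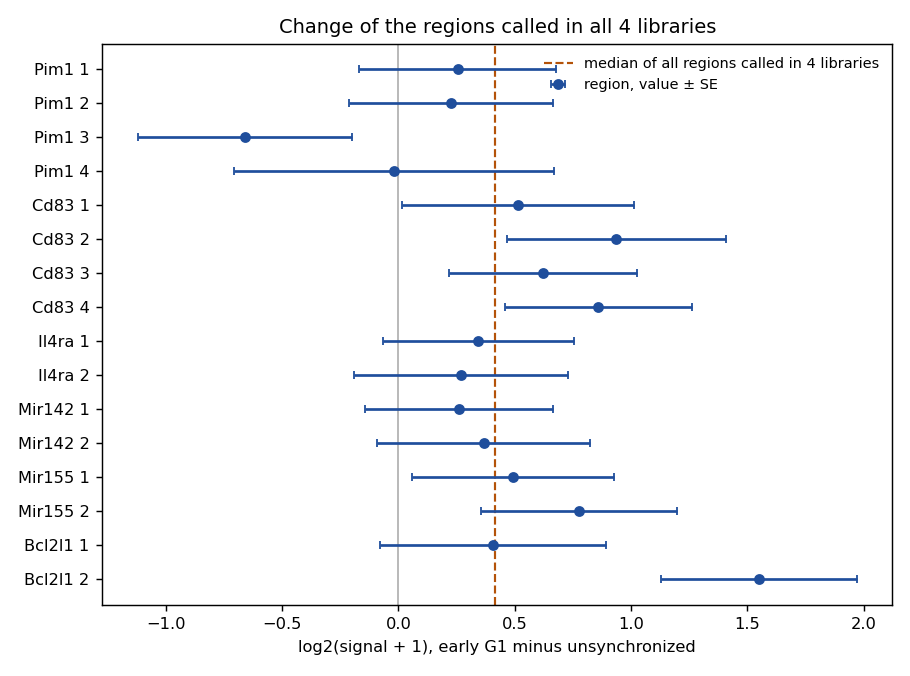
Change of the 16 regions called in all 4 libraries (x axis, log2 of signal + 1, early G1 minus unsynchronized), numbered along each window; points are limma estimates, bars 1 SE, and the dashed line is the median of all regions at 0.41. The last Bcl2l1 region lies farthest right at 1.55 and the third Pim1 region farthest left at -0.66, and none passed the test.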

How the data were processed

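GRO-seq regions of 4 libraries were analysed. Per the file headers, the authors deposited for each library a list of convergent regions with a signal named a geometric mean. BWA 0.7.12, HOMER and mm9 are named in the submitters' processing notes, and the calling and scaling of regions are not given in the sources used here. In each library the square of signal times length was a whole multiple of a constant in 100% of the regions tested, from which reads (the geometric mean of both strands' counts) and library sizes were inferred. The library sizes also rest on a read total assumed for the scaling, the same in every library.

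Groups came from the sample titles. Regions sharing at least 1 base were merged, and a library's value was its length-weighted mean signal. Regions called in all 4 libraries, and window sums with 50 kb bins, were tested with limma 3.58.1 (R 4.3.3, mean-variance trend, pseudocount 1, two-sided, Benjamini-Hochberg over each table, threshold 0.05). The code was run on simulated data with larger changes than most seen here. The simulated spread was below the median residual SD of the data, 0.39 for regions and 0.51 for windows and bins. That run therefore checks the code and not the power of the test on these data. In each window the region of highest signal, the longest and any past the threshold were named. The second Cd83 and Bcl2l1 regions, those called in 1 group alone and the strongest single-library calls were named after their values were seen. A region crossing a window's edge was left out. The members, windows and lists were chosen with earlier results of these data known. Alternatives covered the pseudocount, filters, merging, coverage, scaling, membership, bin size, the trend, the replicate block and leaving out each library. The replicate numbers were not shown to pair the libraries. Gene names and sequences came from RefSeq (GRCm38.p6), no coordinates were converted, and planned lists of marker genes and of further AID targets were not used, since the files name no genes.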

Additional observations from a re-analysis of the deposited data

How the results depend on the processing

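With each library divided by its median, the median change of the 16 shared regions was -0.057 (all regions -0.026). The Pim1 window was then at -0.42, Mir142 chr11:87554740-87568343 at -0.20, Mir142 chr11:87569068-87573158 at -0.094, Pim1 chr17:29631757-29633645 at -0.23 and Il4ra chr7:132695747-132700509 at -0.11. As unscaled reads, the medians were -0.081 for the shared regions (all regions -0.25) and 0.16 for the 7 loci (bins -0.26). On that scale the Pim1, Il4ra and Mir155 windows were at -0.67, -0.23 and -0.021, and Mir155 chr16:84703815-84713383, Pim1 chr17:29631757-29633645 and Il4ra chr7:132695747-132700509 at -0.13, -0.59 and -0.12. Merging within 1 kb turned Pim1 chr17:29634088-29640500 to 0.15. Leaving out 1 library gave medians of 0.34 to 0.70 for the shared regions, 0.52 to 1.16 for the summed signal and -0.28 to 0.48 for the called length of the loci (main value 0.10). The ranges were -0.42 to 0.43 for the Pim1 window (-0.11 without unsynchronized replicate 1, lowest without early G1 replicate 1), -0.086 to 0.97 and -1.90 to 7.15 for the Il4ra and Gas5 windows (both lowest without unsynchronized replicate 2), and -0.19 to 0.93 and -0.25 to 0.70 for Mir142 chr11:87569068-87573158 and Pim1 chr17:29631757-29633645 (both lowest without unsynchronized replicate 1). The cause was not tested, except that scaling by the median removes the common shift by construction. Member calls numbered 0 in every alternative, including the replicate block, where the medians were 0.39 and 0.84 and the Bcl2l1 region had a limma adjusted p of 0.151 (0.054 to 0.83 over its alternatives; it had no value at 50% coverage, and separate parts without early G1 replicate 1). Deviations of same-numbered libraries correlated at 0.104 in regions. Over all regions, calls numbered 17 in the fit reported, 61 under a stricter signal threshold, 79 with 50% coverage, 32 without the 25% of regions of lowest signal, 3 merged within 1 kb, 1 for signal times length, 0 after median scaling, 1 as reads, 2 without the trend, 4 with the replicate block and 12 to 82 without 1 library. Among windows and bins, 56 passed when early G1 replicate 1 was left out, 15 when replicate 2 was, and 0 otherwise. With 2 libraries a group and one of them left out, the remaining one enters with the other group's spread.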

Other observations

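Regions crossing a window's edge were not counted as members. At Cd83 a region over the left edge was called in all 4 libraries, with signals of 18.4 and 12.2 for unsynchronized cells against 47.8 and 17.3 for early G1, so the groups overlapped. At Il4ra a region over the right edge had signals of 18.5 and 15.0 against 24.1 and 13.4, which also overlapped. Its called lengths, 3159 and 2016 bp against 5838 and 4838 bp, did not overlap, unlike those of the Cd83 region. At Mir142 a region over an edge was called in unsynchronized replicate 2 alone, with a signal of 11.8.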
